A study of Mus musculus with 2 samples.

Results

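The 34 genes described here encode the enzymes and transporters of glycolysis, the oxygen-sensing proteins of the HIF pathway and a set of HIF target genes, and they were taken by symbol from the 32285 features of each library. They were followed through marker-gated immune cells of mouse liver tumours, and between an anti-PD-1 library and an isotype library. Hepa1-6 mouse hepatoma cells had been implanted orthotopically in the liver of C57/BL6 mice (genotype WT), and live CD45+ cells were enriched with beads, sorted and sequenced with the 10x Genomics 3′ v2 chemistry, which counts unique molecular identifiers (UMIs) near the end of each mRNA. The treated group received anti-PD-1, an antibody against an inhibitory receptor of T cells, and the control group received an isotype antibody, which the series' design text calls IgG. Each group is 1 library, so no test between treatments was possible. The sources used here do not give the number or age of the mice in each library, or the dose and days of treatment.

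Glycolysis splits glucose into pyruvate and yields ATP without oxygen. Neutrophils rely on it, and macrophages and T cells raise it when activated. HIF-1α is hydroxylated by the EGLN prolyl hydroxylases and destroyed when oxygen is present, and when oxygen is scarce it binds DNA at a short core, ACGTG or GCGTG, and raises transcription of glycolytic genes, of angiogenic factors such as Vegfa, and of Egln3 itself.

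The core ACGTG, or CACGT on the other strand, was searched in the 250 bases before the RefSeq start sites of the members (GRCm38.p6, the same assembly as mm10). Promoters were found for 31 of the 34 members. The core stood in at least 1 such window of 20 of these 31 members (64.5%), and in 4998 of 27025 genes in the whole table (18.5%). GCGTG stood in 20 of 31 members (64.5%) and in 8338 of 27025 genes (30.9%). A gene can have several windows. Counted by window, ACGTG stood in 51.1% of 45 member windows and in 16.6% of 32851 windows of the table. GCGTG stood in 51.1% and 28.2% of them. These letters were only matched, and binding was not measured. Sequences of 4 members with the core are printed because their genes were among the glycolytic and oxygen-sensing members highest in myeloid or regulatory T cells, with Gpi1 as a member whose window lacks it. Capitals mark ACGTG or CACGT, and CACGTG holds a match on each strand.
Ldha: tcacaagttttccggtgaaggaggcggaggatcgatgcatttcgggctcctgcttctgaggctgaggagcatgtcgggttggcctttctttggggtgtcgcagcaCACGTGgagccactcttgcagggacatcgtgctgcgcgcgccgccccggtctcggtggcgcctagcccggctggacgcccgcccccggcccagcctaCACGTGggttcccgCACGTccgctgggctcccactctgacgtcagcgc
Hk2: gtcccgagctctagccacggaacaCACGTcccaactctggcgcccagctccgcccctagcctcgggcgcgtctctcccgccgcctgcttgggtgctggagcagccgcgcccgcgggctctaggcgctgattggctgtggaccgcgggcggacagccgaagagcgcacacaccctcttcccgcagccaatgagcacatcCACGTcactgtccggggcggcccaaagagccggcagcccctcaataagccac
Pgk1: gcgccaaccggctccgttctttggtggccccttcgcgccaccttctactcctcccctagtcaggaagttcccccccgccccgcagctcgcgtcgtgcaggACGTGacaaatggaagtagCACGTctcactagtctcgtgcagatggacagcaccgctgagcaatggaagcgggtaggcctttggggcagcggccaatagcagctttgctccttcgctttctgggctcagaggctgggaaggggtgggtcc
Egln3: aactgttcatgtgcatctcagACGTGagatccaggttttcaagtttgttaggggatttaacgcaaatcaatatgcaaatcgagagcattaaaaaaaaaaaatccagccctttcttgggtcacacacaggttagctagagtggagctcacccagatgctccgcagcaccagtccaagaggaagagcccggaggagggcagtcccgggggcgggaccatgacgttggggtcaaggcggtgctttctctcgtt
Gpi1: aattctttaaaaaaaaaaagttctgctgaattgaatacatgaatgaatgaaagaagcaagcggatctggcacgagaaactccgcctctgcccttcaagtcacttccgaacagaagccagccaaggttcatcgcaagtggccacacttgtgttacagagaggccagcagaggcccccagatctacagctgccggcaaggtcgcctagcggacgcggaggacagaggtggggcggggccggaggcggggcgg
The Ldha window printed (chr7:46845554-46845803, plus strand) held 5 matches, the most of any member window, and a second Ldha window (chr7:46846832-46847081) held 0. The Hk2 window (chr6:82774455-82774704, minus strand) and the Pgk1 window (chrX:106186850-106187099, plus strand) held 2 each. The Egln3 window (chr12:54203875-54204124, minus strand) held 1, and the Gpi1 window (chr7:34230337-34230586, minus strand) held 0.

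The anti-PD-1 library had 10149 barcodes and 72148493 UMIs, and the isotype library 9683 and 67520433. After filters and doublet removal 9711 and 9278 cells remained, with medians of 6303 and 6124 UMIs. A cell was assigned to the list of marker genes on which it scored highest, and each name below means a population like that type by its markers. No member was among the markers. In all 8704 and 8344 cells were gated, and 10.4% and 10.1% of kept cells were not. Sub-gates cut a range of scores: the 2 highest scores lay within 0.05 of each other in 215 of 2392 and 225 of 2519 gated neutrophils, and in 161 of 4632 and 55 of 4261 monocytes and macrophages. The libraries shared 140 barcode sequences. Markers of hepatoma cells summed to at most 11.4 UMIs per 1000000 UMIs of a cell type (CPM) in any type and library, of fibroblasts to 6.56, and of red cells to 1.69. Platelet markers reached 423 CPM (C1q-high macrophages, isotype) and endothelial markers 159 CPM (plasmacytoid dendritic cells, anti-PD-1), and their part in the results was not tested. Values below are CPM of a cell type's summed counts, given for the anti-PD-1 library and then the isotype library, with 95% exact Poisson intervals that cover counting error only. Cells are not replicates, and levels of different genes were not ranked against each other.

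Arg1-high macrophage-like cells and tumour-adapted neutrophil-like cells carried the highest summed level of the 34 members. The sum was 22097 CPM (22003 to 22192) and 20924 CPM (20847 to 21002) in Arg1-high macrophages. In tumour-adapted neutrophils it was 19367 and 20422 CPM. The latter were gated on Ccl3, Ccl4, Csf1, Siglecf, Il1rn, Ptgs2 and Cd274, and Arg1-high macrophages on Arg1, Mmp12, Spp1, Ccl24 and Fn1. Whether these markers share regulation with the members was not tested. The order of these 2 types was the same in both libraries, but without Gapdh it turned in the isotype library (16376 CPM in Arg1-high macrophages and 17886 in tumour-adapted neutrophils). Regulatory T cells followed at 17008 and 17688 CPM and CD4 T cells at 15826 and 14835 CPM. B cells were lowest, at 3922 and 4421 CPM, then plasmacytoid dendritic cells at 5757 and 5108 CPM and migratory dendritic cells at 8284 and 7977 CPM. The spread over the 18 types with at least 25 cells in each library was wider than the difference between libraries within any type, as the plot of summed levels shows.

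**Figure D1:**
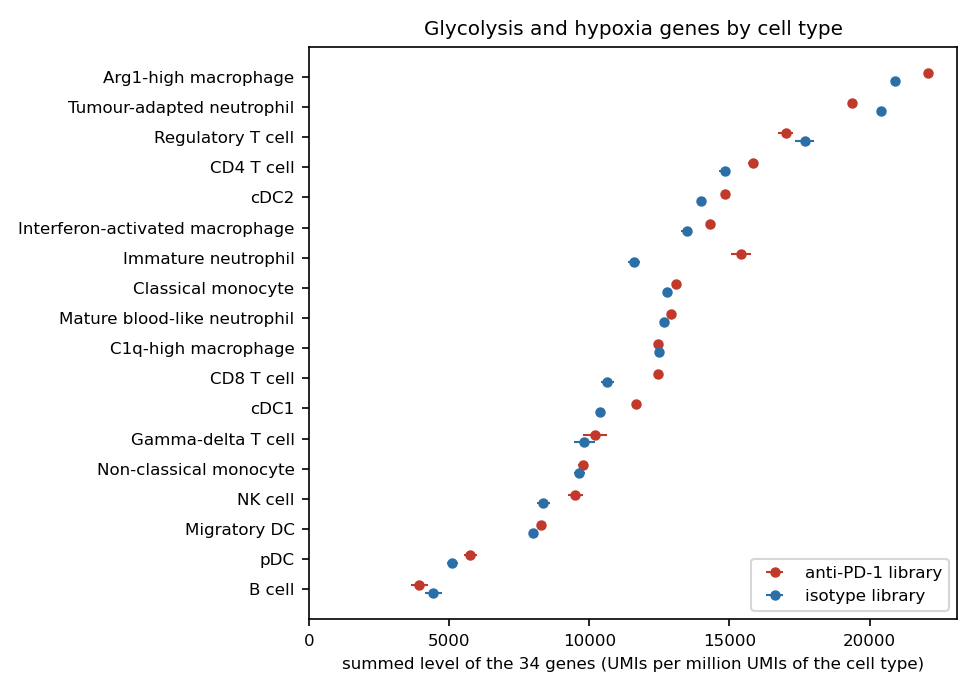
Summed level of the 34 genes (x axis, UMIs per 1000000 UMIs of the cell type) in each of 18 marker-gated cell types (y axis) in the anti-PD-1 library (red) and the isotype library (blue); bars are 95% Poisson intervals. Arg1-high macrophages (22097 and 20924) and tumour-adapted neutrophils (19367 and 20422) lie to the right of all other types in both libraries.

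Of the 34 members, 28 were highest in the same type in both libraries. Tumour-adapted neutrophils held the highest level of 10 members in both libraries, Arg1-high macrophages of 8, and mature blood-like neutrophils and regulatory T cells of 3 each. The heat map of levels shows these blocks.

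**Figure D2:**
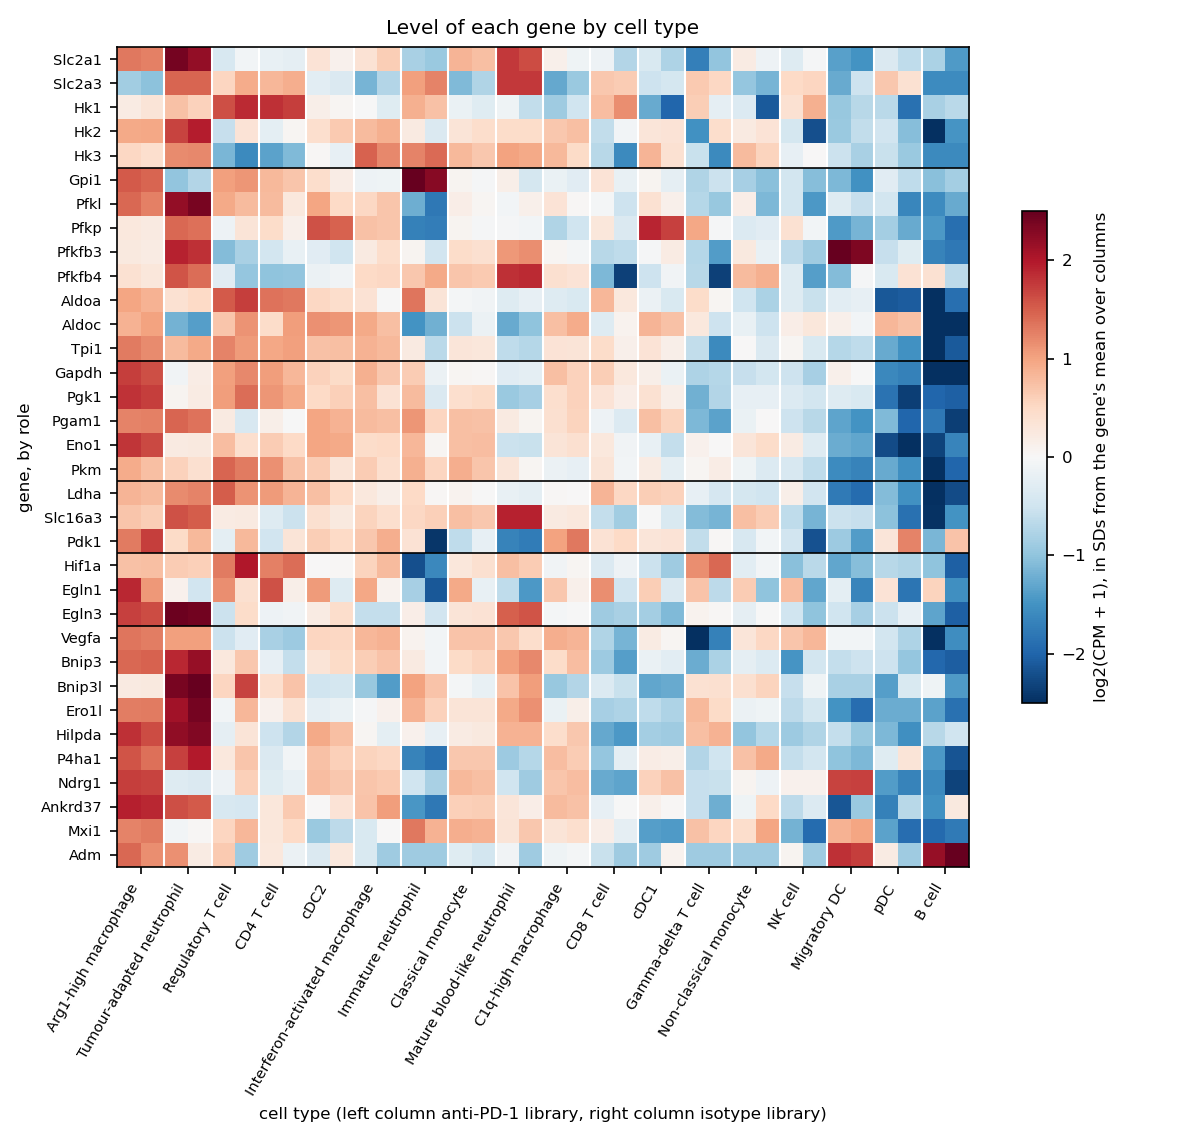
Level of each gene (rows, ordered by role, black lines between roles) in each cell type (column pairs, left anti-PD-1, right isotype), as log2(CPM + 1) in SDs from that gene's mean over all columns. Red blocks for tumour-adapted neutrophils cover Slc2a1, Hk2, Egln3, Bnip3, Ero1l and Hilpda, and the columns of a pair mostly look alike.

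Glucose uptake and the first phosphorylation were divided between transporters and hexokinases by cell type. Slc2a1, the widely used glucose transporter GLUT1, reached 573 and 501 CPM in tumour-adapted neutrophils, 366 and 333 in mature neutrophils and 266 and 254 in Arg1-high macrophages. Slc2a3, the high-affinity transporter GLUT3, was mainly a neutrophil transcript here, with lower levels in T cells. It stood at 337 and 337 CPM in mature neutrophils, 195 and 194 in tumour-adapted ones and 66.2 and 74.8 in CD4 T cells, against 2.42 and 1.58 in Arg1-high macrophages and 1.24 and 3.19 in classical monocytes. When each cell with at least 1000 UMIs was thinned to that depth, 22.2% and 21.1% of mature neutrophils had a Slc2a3 UMI. Of Arg1-high macrophages 0.147% and 0.173% did. Over all cells, unthinned, the shares were 39.1% and 36.7% of mature neutrophils and 1.07% and 1.11% of Arg1-high macrophages. The 3 hexokinase genes, which trap glucose as glucose 6-phosphate, peaked in different cells. Hk2, the inducible form, was highest in tumour-adapted neutrophils at 175 and 234 CPM. Hk1, the constitutive form, was highest in CD4 T cells of the anti-PD-1 library (103 CPM; 98.1 in isotype) and regulatory T cells of the isotype library (93.2 and 105). Hk3, the myeloid form, stood at 181 and 113 CPM in interferon-activated macrophages, at 121 and 161 CPM in immature neutrophils (28 and 49 cells) and at most 1.29 CPM in CD4 and regulatory T cells.

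The middle enzymes of the pathway had no single peak. Aldoa, the main aldolase, was highest in regulatory T cells (2255 and 2423 CPM) and in CD4 T cells stood at 2094 and 2071 CPM. Gpi1, the isomerase after hexokinase, was highest in immature neutrophils (1585 and 1176 CPM), which rest on 28 and 49 cells. Pfkp, the platelet-type phosphofructokinase, was highest in conventional type 1 dendritic cells (cDC1) at 522 and 469.5 CPM, and Pfkl, the liver type, in tumour-adapted neutrophils at 180.2 and 193. The enzymes that make the activator of phosphofructokinase also parted by type. Pfkfb3 was highest in migratory dendritic cells (264 and 219.6 CPM, against 21.6 and 17.6 in type 2 dendritic cells, cDC2), while Pfkfb4 was highest in mature neutrophils (83.1 and 86.6 CPM).

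Among the later steps of the pathway, Gapdh, Pgk1 and Eno1 were highest in Arg1-high macrophages. Gapdh, the dehydrogenase of the pathway, reached 4768 and 4548 CPM there, Pgk1, the first ATP-yielding kinase, 1276 and 1231 CPM, and the enolase Eno1 2295 and 2165 CPM. Pgam1, the mutase between Pgk1 and enolase, was highest in tumour-adapted neutrophils (888 and 846 CPM). Pkm, pyruvate kinase, was highest in regulatory T cells at 2021 and 1867 CPM. Ldha, which turns pyruvate into lactate, was 2262 and 1869 CPM in regulatory T cells and 1914 and 1980 CPM in tumour-adapted neutrophils, so its highest type differed between libraries. Slc16a3, the lactate exporter MCT4, was highest in mature neutrophils (1151 and 1127 CPM), then tumour-adapted neutrophils (766 and 704), and no other type passed 292 CPM. Eno1 has a near-identical copy, Eno1b, counted as a feature of its own, and reads may have been split between them.

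Among the oxygen-sensing genes, Hif1a mRNA, which does not report HIF-1α protein, was highest in regulatory T cells (553 and 833 CPM), with 538 and 583 CPM in CD4 T cells and 509 and 602 CPM in γδ T cells. Egln3, the prolyl hydroxylase that is itself a HIF target, was highest in tumour-adapted neutrophils (490.1 and 474 CPM), then Arg1-high macrophages (237 and 222) and mature neutrophils (192 and 207). No other type exceeded 68.8 CPM. Hilpda, a lipid droplet protein that inhibits fat breakdown, was 2458 and 2701 CPM in tumour-adapted neutrophils and 1724 and 1434 in Arg1-high macrophages. Ero1l, the oxidase of protein folding in the endoplasmic reticulum, was 935 and 1236 CPM in tumour-adapted neutrophils, and Bnip3, a mitophagy receptor, 531 and 712 CPM. Vegfa, the endothelial growth factor, was highest in Arg1-high macrophages (708 and 638 CPM), with 422 and 420.4 CPM in tumour-adapted neutrophils, and 31.4 and 47.5 CPM in regulatory T cells. Ndrg1, a stress-response gene, was equally a macrophage and a dendritic cell transcript, at 344 and 326 CPM in Arg1-high macrophages and 329 and 336 CPM in migratory dendritic cells, and stood at 42.9 and 41.2 CPM in tumour-adapted neutrophils. Adm, adrenomedullin, was below 20 CPM in all types but B cells, where 28.3 and 60.7 CPM rest on 40 and 44 cells.

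After thinning to 1000 UMIs per cell, 68.3% (65.7% to 70.8%) and 63% (60.7% to 65.3%) of Arg1-high macrophages had a Hilpda UMI, by exact Clopper-Pearson intervals, as did 49.9% and 51.7% of tumour-adapted neutrophils. Before thinning the shares, over all cells, were 89.5% and 87.4%, and 54.7% and 55.2%. Cells with fewer than 1000 UMIs were left out of the thinned values: 39 and 70 Arg1-high macrophages, and 186 and 243 tumour-adapted neutrophils. Free RNA can also give UMIs. In B cells 5 of 40 and 7 of 43 thinned cells had one (12.5% and 16.3%). The shares were lower in CD8 T cells, at 17 of 187 and 6 of 70 (9.09% and 8.57%). The median number of UMIs from all 34 members per 1000 was 21 and 20 in Arg1-high macrophages, 15 and 16 in tumour-adapted neutrophils and 3 and 3 in B cells. In tumour-adapted neutrophils the middle of the distribution was wide, with quartiles of 8 and 26 UMIs under anti-PD-1 and 9 and 29 under isotype.

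Tumour-adapted neutrophils were set against mature blood-like neutrophils within each library. In both libraries 21 of 34 measured members were at least 1.5-fold higher in the tumour-adapted cells, where 16.7% of 7989 features were, and 2 were at least 1.5-fold lower, where 11.4% were. The median log2 ratio of the members was 0.77 and 0.85, and that of all features 0.04 and 0.16. The difference was 2.03 and 2.09 on the log2 scale for P4ha1, which hydroxylates collagen, 1.94 and 2.35 for Hk2, and 1.77 and 1.92 for Hilpda. Slc2a3 (-0.79 and -0.79) and Slc16a3 (-0.59 and -0.68) were the members lower in the tumour-adapted cells, while the transporter Slc2a1 was higher (0.65 and 0.59). Adm is counted among the higher members on 26 and 7 UMIs, with 0 UMIs in mature neutrophils of the isotype library. Of 24 measured genes in a list of other HIF pathway genes, 18 were higher and 0 lower, among them Fam162a, Higd1a and Ddit4. Of 15 measured other glycolysis and pyruvate genes, 3 were higher (Eno3, Pgm1 and Gys1) and 3 lower (Mpc1, Pygl and Adpgk). Stress genes induced by tissue digestion summed to 21944 and 19257 CPM in tumour-adapted and 16337 and 14096 CPM in mature neutrophils, and median depth was 1852 and 1741 against 2311 and 2128 UMIs. Their part in the difference was not tested.

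Arg1-high macrophages were set against 2 populations of the same lineage. Against C1q-high macrophages, 20 of 34 members were at least 1.5-fold higher in both libraries, where 5.21% of 11218 features were, and 0 were lower, where 10.3% were. The medians of the members were 0.76 and 0.64, and those of all features -0.17 and -0.13. Among the higher members were Egln3 (2.51 and 2.35), Ero1l (1.99 and 1.58) and Hilpda (1.83 and 1.24). Against classical monocytes, 17 of 34 were higher, where 8.68% of 11837 features were, and 1, Hk3, was lower (-0.74 and -0.62), where 15.8% were. Among the higher members were Aldoc, a second aldolase (2.33 and 1.87), Hilpda (2.14 and 1.82), Egln3 (1.96 and 1.82) and Ankrd37, a HIF-induced ankyrin repeat protein (1.75 and 1.66). Of 30 measured other HIF pathway genes, 13 were higher and 1 lower than in C1q-high macrophages, and 11 higher and 0 lower than in classical monocytes. Digestion stress genes summed to 12685 and 12114 CPM in Arg1-high and 11246 and 10095 CPM in C1q-high macrophages, and their part was not tested. The plot of both contrasts shows that the members lie close to the line of equal ratios in the libraries.

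**Figure D3:**
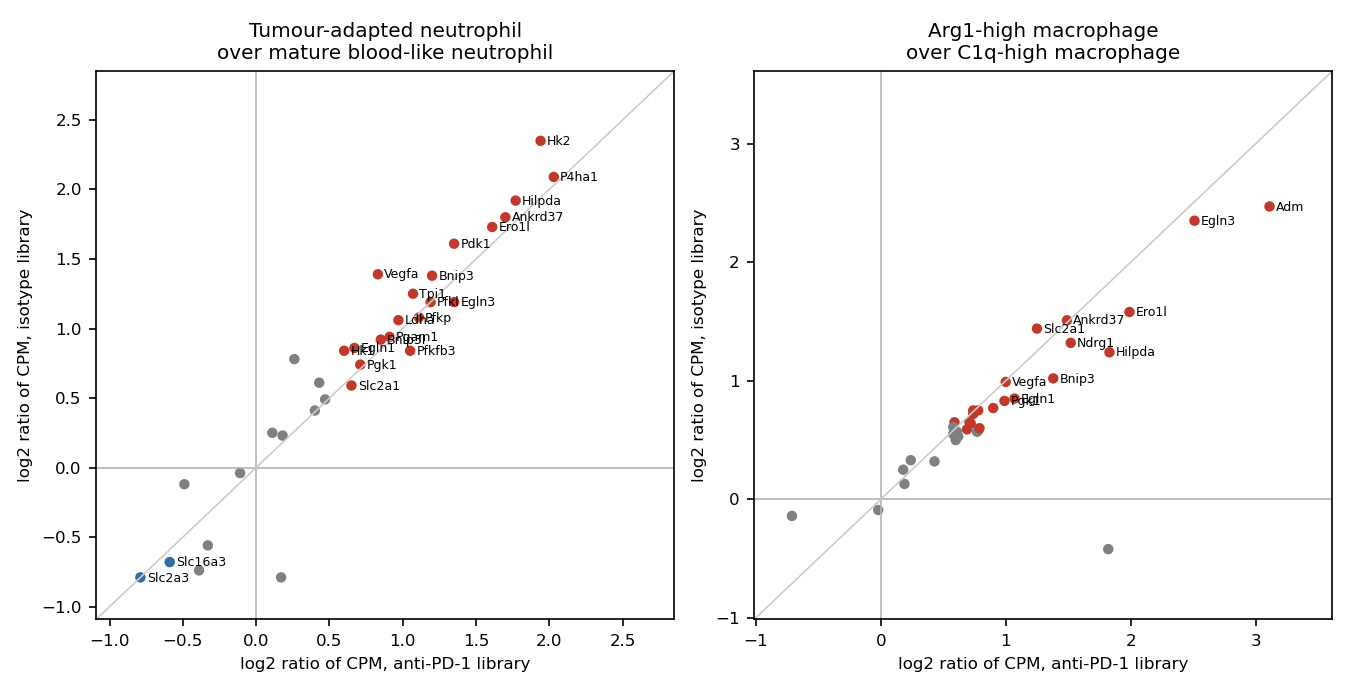
Log2 ratio of CPM between cell types for each member in the anti-PD-1 library (x axis) and in the isotype library (y axis), for tumour-adapted over mature neutrophils (left) and Arg1-high over C1q-high macrophages (right). Red points are at least 1.5-fold higher in both libraries, blue points at least 1.5-fold lower and grey points neither; the diagonal marks equal ratios, labels on the right are for coloured points with a ratio of at least 0.95, and Adm is left out on the left, where 1 library had 0 UMIs. Slc2a3 and Slc16a3 are the blue points.

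Migratory dendritic cells, marked by Ccr7 and Fscn1, had a lower sum of the members (8284 and 7977 CPM) than cDC1 (11654 and 10370) and cDC2 (14827 and 14001). Plasmacytoid dendritic cells were lower still (5757 and 5108 CPM). Only cDC2 were set against the migratory cells gene by gene. In cDC2 23 of 34 members were at least 1.5-fold higher than in migratory dendritic cells in both libraries, where 22.4% of 10361 features were, and 4 were lower, where 16.3% were. Ldha was 1549 and 1375 CPM in cDC2 and 449 and 414 CPM in migratory dendritic cells. Pfkfb3 (-3.61 and -3.64), Mxi1, a Max-binding repressor (-1.56 and -1.41), Ndrg1 (-1.35 and -1.49) and Adm were the members lower in cDC2. Among T cells, 9 of 31 measured members were higher in regulatory than in CD8 T cells in both libraries, where 11.3% of 9203 features were, and 0 were lower, where 6.62% were. Hif1a was 553 and 833 CPM in regulatory and 208 and 238 CPM in CD8 T cells. Bnip3, Ero1l, Hilpda, Ndrg1 and P4ha1 were also among the 9.

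The genes whose levels most resembled the members' mean over 14 types in both libraries (28 points that share libraries and depth) were Fam162a (Pearson r = 0.91), a mitochondrial HIF target, Bsg (0.87), the chaperone of lactate transporters, and Higd1a (0.85), a mitochondrial hypoxia gene. Next came Ralgds and Rbpj (0.79 each), Cd53, Furin, Cklf and Dubr (0.78 each) and Slc43a2 (0.77). None of these is in the lists of other HIF or glycolysis genes used here. Fam162a stood at 383 and 384 CPM in Arg1-high macrophages, 338 and 390.3 in tumour-adapted neutrophils and 58.2 and 47.7 in migratory dendritic cells. Among the members, Pfkl (0.87), Ero1l (0.84) and Pgam1 (0.83) were most like the mean of the others, and Pfkfb3 (-0.05), Aldoc (0.01) and Ndrg1 (0.05) least. These are descriptions over 28 points that are not independent.

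Between the libraries the members differed little in most types. Each ratio is the log2 of the anti-PD-1 CPM over the isotype CPM, and was taken for members with 20 or more UMIs in the sum of the libraries, in 14 types with at least 50 cells in each. In the myeloid types with the highest levels, the members' median was 0.06 in Arg1-high macrophages (all features 0.03) and -0.01 in tumour-adapted neutrophils (0.04). The number of members past 1.5-fold in either direction was 2 of 34 in Arg1-high macrophages, where 6.77% of features were, and 1 of 33 in tumour-adapted neutrophils, where 13.6% were. It was 1 of 32 in C1q-high macrophages (background 9.59%), 3 of 34 in classical monocytes (6.45%), 2 of 32 in interferon-activated macrophages (15.6%), 5 of 31 in non-classical monocytes (17.5%) and 1 of 32 in mature neutrophils (15.9%). Among dendritic cells it was 4 of 33 in cDC1 (15.1%), 2 of 33 in cDC2 (10.3%) and 3 of 31 in migratory cells (14%). Among lymphocytes it was 2 of 31 in CD4 T cells (17.5%), 6 of 31 in CD8 T cells (21.9%) and 5 of 27 in NK cells (21.1%). In these 13 types the members' share was below the background except in classical monocytes, and the medians lay between -0.05 and 0.21.

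Regulatory T cells stood apart from those types in their count. There 12 of 30 measured members were past 1.5-fold, where 25.4% of 6790 features were, and 11 of them were lower under anti-PD-1, where 8.72% of features were. The members' median was -0.30, and that of all features 0.07. The 11 were Hif1a and Egln3 of the oxygen-sensing genes, the HIF targets Ero1l, Ndrg1, Hilpda, Bnip3 and Vegfa, and Hk2, Slc2a3, Aldoc and Pdk1 of the glucose pathway. The counting intervals of Vegfa (-1.40 to 0.20), Aldoc (-1.50 to 0.10) and Pdk1 (-1.76 to 0.47) span 0. Several of the 11 were lower in most measured types, regulatory T cells included. Ero1l was lower in 12 of 14 (median over types -0.13), Hif1a in 11 (-0.12), Bnip3 in 10 (-0.14) and Pdk1 in 10 of 13. Hk2 was higher in 0 of 13. Egln3 was lower in 8 of 14, Aldoc in 7 of 11, Slc2a3 in 5 of 10, and Vegfa, Hilpda and Ndrg1 in 6 of 14. Ero1l was at 116 and 277 CPM (-1.26, interval -1.63 to -0.90), from 103 and 169 UMIs. Egln3 was at 25.8 and 68.8 CPM (-1.41, -2.22 to -0.65), from 23 and 42 UMIs, and Ndrg1 at 52.8 and 109.8 CPM (-1.06, -1.63 to -0.50). Hif1a was at 553 and 833 CPM (-0.59, -0.77 to -0.41), and Hilpda at 268 and 436 CPM (-0.70, -0.96 to -0.44). Several glycolytic enzymes lay on the other side, within 1.5-fold: Pgam1, the mutase before enolase, at 474 and 344 CPM (0.46, 0.22 to 0.71), Ldha (0.28, 0.17 to 0.38) and Eno1 (0.22, 0.09 to 0.35). Of 23 other HIF pathway genes, 5 were higher and 18 lower (median -0.33), and of 15 other glycolysis and pyruvate genes 4 were lower and 11 higher. Of all 6790 features, 55.9% were higher.

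The regulatory T cell values rest on 85 and 68 cells and depend on which cells are counted. Without cycling cells, those with at least 2 UMIs of Mki67 and Top2a, the number past 1.5-fold fell from 12 to 6, Hif1a moved to -0.27 and Hilpda to -0.20. With each cell thinned to 1000 UMIs the number fell to 4, the members' median less that of all features moved from -0.37 to -0.05, and Hilpda (0.11), Bnip3 (0.53) and Slc2a3 (1.68) changed sign. Ero1l, Egln3 and Ndrg1 stayed at or below -0.93 under each of 9 alternatives. Thinning is among them, but it leaves only a small part of these UMIs. Before it Egln3 had 23 and 42 UMIs and Ndrg1 47 and 67. Their thinned values (-2.49 and -1.49) thus rest on few UMIs and carry little weight. Proliferation genes summed to 4594 and 3759 CPM in these cells, neutrophil markers to 357 and 256 CPM, against 51966 and 57712 CPM in tumour-adapted neutrophils, and the macrophage gene Lyz2 stood at 397 and 190.1 CPM. The part of these genes in the differences was not tested. In CD4 T cells Hif1a was at 538 and 583 CPM, Ero1l at 139 and 181 CPM and Aldoc at 23.4 and 44.5 CPM (-0.93, -1.50 to -0.36). Of 25 other HIF pathway genes measured there, 8 were higher and 17 lower (median -0.26), where 58.7% of 8743 features were higher (median 0.08). Whether regulatory and CD4 T cells differ in this was not tested.

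Egln1, the main oxygen-sensing prolyl hydroxylase PHD2 (chr8:124908587-124949324, minus strand, GRCm38), had the largest median ratio between libraries of any member, and it was higher in the anti-PD-1 library in all 14 types, though not in regulatory T cells (-0.91) or cDC1 (-0.01) once cells were thinned to 1000 UMIs. Its ratio ran from 0.50 (0.24 to 0.76) in C1q-high macrophages to 1.87 (0.82 to 3.05) in NK cells, with a median over types of 0.94. Egln1 was at 127 and 77.7 CPM in Arg1-high macrophages, 71.1 and 35.5 CPM in classical monocytes, 76.8 and 32.5 CPM in cDC2 and 106 and 43.9 CPM in CD4 T cells. Of 4001 features measured in all 14 types, 1.4% were higher under anti-PD-1 in every type and 1.65% lower. The 5 features with a higher median than Egln1 were Brd1, Ly6a, Igtp, Sppl3 and Ppp2cb. Of these, Brd1 (1.02) and Ppp2cb (0.97) were higher in all 14 types, as were Hipk2 (0.89) and Kmt5a (0.76), named here after their values were seen. The features lower in all 14 types were 66, of which 23 were ribosomal protein genes, with Rps28 at -0.68 and Rpl38 at -0.67. Egln1 therefore moved with a set of differences that ran through all cell types of a library; with 1 library a group, treatment and library preparation cannot be told apart.

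**Figure D4:**
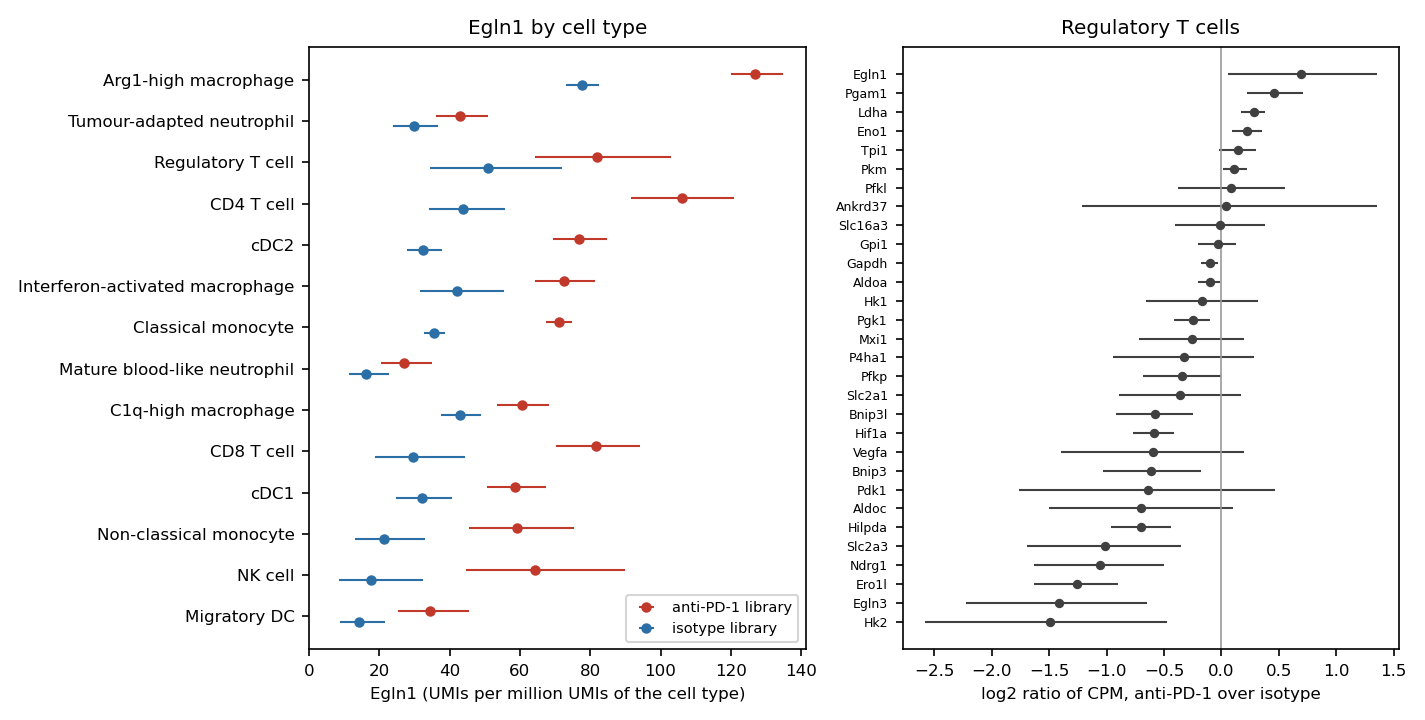
Left, Egln1 level (x axis, UMIs per 1000000 UMIs of the cell type) in 14 cell types (y axis) in the anti-PD-1 library (red) and the isotype library (blue), with 95% Poisson intervals. Right, log2 ratio of CPM, anti-PD-1 over isotype, for each of 30 measured members in regulatory T cells, with 95% exact intervals; both cover counting error only. Egln1 is higher in the anti-PD-1 library in each of the 14 types, and Hk2, Egln3, Ero1l and Ndrg1 lie lowest in regulatory T cells.

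Pkm was the other member higher in all 14 types, by 0.05 in C1q-high macrophages to 0.30 in cDC1, with a median of 0.15. Hk2 was higher in 0 of the 13 types in which it was measured, with a median of -0.19. In mature neutrophils it was equal, at 45.8 and 45.8 CPM (-0.00). The share of all features with such a pattern over these 13 types was not taken. In tumour-adapted neutrophils Hk2 was at 175 and 234 CPM (-0.42, -0.58 to -0.25), and in Arg1-high macrophages at 78.7 and 79.6 CPM (-0.02, -0.15 to 0.12), where the interval spans 0. Hk3 was higher in 8 of 9 measured types. It was at 181 and 113 CPM in interferon-activated macrophages (0.67, 0.41 to 0.95), 56.8 and 31.8 CPM in C1q-high macrophages (0.83, 0.54 to 1.13) and 60.9 and 27.3 CPM in cDC1 (1.16, 0.73 to 1.61). The cDC1 ratio fell to 0.29 with cells thinned to 1000 UMIs, and the C1q-high ratio to 0.43 with clusters in place of gates. Both are within 1.5-fold. The lowest ratio over the alternatives in interferon-activated macrophages was 0.64. In classical monocytes Hk3 was at 57.9 and 44.7 CPM. The number of gated interferon-activated macrophages was 475 and 133. Slc16a3 was at 118 and 76 CPM in cDC1 (0.63, 0.37 to 0.91). Vegfa, Bnip3l and Hilpda stayed within 1.5-fold in both Arg1-high macrophages and tumour-adapted neutrophils. So did Ero1l and Bnip3, but in tumour-adapted neutrophils both were lower under anti-PD-1 (935 and 1236, and 531 and 712 CPM). In Arg1-high macrophages Ero1l was at 424 and 431 CPM and Bnip3 at 342 and 358 CPM. After thinning, 36.8% (34.3% to 39.4%) and 43.5% (40.9% to 46.2%) of tumour-adapted neutrophils had an Ero1l UMI.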

How the data were processed

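Live CD45+ cells of mouse liver tumours were profiled in 1 anti-PD-1 and 1 isotype library. The files deposited hold unnormalized UMI counts, as whole numbers by gene and barcode. Per the submitters' processing notes the build is mm10 and the tool Cell Ranger 2.1.1, while the file headers name 5.0.1. Barcodes with at least 500 UMIs, 200 genes and at most 10% mitochondrial UMIs were kept, and scrublet (scanpy 1.11.5) scores above 0.25 were removed as doublets, since the automatic threshold marked 1 barcode per library.

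Cells were gated on markers: each marker's log value was divided by its 75th percentile among positive cells, capped and averaged over the list. Cells with a score below 0.2 or a margin below 0.05 over the next list were not gated. T cells were split by Foxp3, γδ markers, Cd8a or Cd8b1, and Cd4. This scoring was settled after the data were seen. The members and lists, and the rule that any member may be named, were chosen with earlier results of these data known; the genes most alike are the 10 with the highest r. Counts were summed per type and library and divided by the summed total. Ratios have exact conditional binomial intervals. They were checked on simulated Poisson counts, which hold counting error only. Variation between cells or libraries was not simulated, so their coverage in these data was not tested. Features with at least 20 UMIs entered. Aldoa has a second feature with 14 UMIs, which was not used. Python 3.11.15, numpy 2.4.6, scipy 1.17.1 and, for the TMM alternative, edgeR 4.0.16 in R 4.3.3 were used. Other alternatives changed the filters, doublet removal, gating, depth and denominators.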

Additional observations from a re-analysis of the deposited data

How the results depend on the processing

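Over 12 alternatives the members' median ratio between libraries stayed within the median of the single members' interval bounds in each of 14 cell types (7 for clusters). That span is not an interval of the median itself and is wide, so staying within it does not show that the median was stable. In regulatory T cells it ran from -0.75 to 0.15, and thinning to 1000 UMIs moved the median from -0.30 to -0.02. Counts of members past 1.5-fold, which are small, moved more. They are given below without the number of members measured or the share of all features under each setting. They therefore show how far a count moved, and cannot be set against a background. In Arg1-high macrophages the count of 2 was 1 without doublet removal, by clusters, without mitochondrial and ribosomal protein genes in the total, without cycling cells and with at least 100 UMIs. In regulatory T cells 12 became 6 by the mean of each cell's CPM, without cycling cells and with at least 100 UMIs, and 4 with cells thinned to 1000 UMIs. Thinning gave 5 in C1q-high and in interferon-activated macrophages, 3 in CD8 T and NK cells, 2 in mature neutrophils, 4 in cDC2 and 0 in tumour-adapted neutrophils. A minimum of 100 UMIs gave 2 in CD8 T cells, 1 in non-classical monocytes and 0 in mature and tumour-adapted neutrophils, migratory dendritic cells and NK cells. A minimum of 1 UMI in each library gave 2 in C1q-high macrophages, 4 in CD4 T cells, 6 in migratory dendritic cells and 8 in NK cells. The mean of each cell's CPM gave 6 in migratory dendritic cells, 8 in NK cells and 2 in mature neutrophils. Without doublet removal the count was 4 in CD4 T cells and 3 in mature and in tumour-adapted neutrophils, and without cycling cells 6 in CD4 T cells. A mitochondrial limit of 20% gave 2 in mature neutrophils, and in cDC2 a limit of 5%, clusters, TMM and the reduced total gave 1.

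Of the type contrasts, the 2 members lower in tumour-adapted neutrophils were 1 with a mitochondrial limit of 5%, TMM or the reduced total. Against classical monocytes, clusters gave 26 higher members in Arg1-high macrophages, and clusters, the mean of each cell's CPM, TMM and the reduced total gave 0 lower. Without doublet removal 1 member was lower in regulatory than in CD8 T cells. Clusters gave no value for mature neutrophils, since no cluster met the naming rule for them. Single ratios that changed sign did so after thinning, at few UMIs: in regulatory T cells Slc2a3 (1.68), Egln1 (-0.91), Bnip3 (0.53; 0.02 by the mean of each cell's CPM) and Hilpda (0.11), in cDC1 Egln1 (-0.01), and in non-classical monocytes Ankrd37 (2.54). Egln1 kept its sign under every other alternative in the types where it passed 1.5-fold. The cause of these moves was not tested, except that a stricter or looser minimum changes which members are measured. No paired analysis was possible because each group holds 1 library, so the groups share 1 replicate number. Leaving out a library leaves no comparison, and the lower types rest on few cells, so counting intervals understate the uncertainty.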
